A study of Mus musculus with 8 samples.

Results

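Nuclear receptors of the PPAR and ERR families, their partner Rxra and the coregulators that act on them were followed in mouse hearts with a leaking mitral valve. The 10 genes were picked by name among 33105 genes in the count table, with earlier results of these data known. They are the receptors Ppara, Ppard, Pparg, Esrra, Esrrb, Esrrg and Rxra, the coactivators Ppargc1a (PGC-1α) and Ppargc1b (PGC-1β), and the corepressor Nrip1 (RIP140). All 10 were found and all 10 passed the filter on low counts. The study compared hearts of C57BL/6J mice after a minimally invasive operation that causes mitral regurgitation (MR) with hearts of C57BL/6J mice after a Sham procedure, with 4 libraries per group. It asked which pathways take part in the hypertrophy that follows volume overload. The labels used here give no age, sex, time after surgery or heart region, and they name no allele or drug in either group.

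PPAR receptors are switched on by fatty acids and bind DNA as pairs with a retinoid X receptor, such as Rxra. ERR receptors have no known natural hormone and bind DNA as monomers or dimers at sites with the core AAGGTCA. PGC-1 coactivators dock on both families and raise the expression of genes for fatty acid oxidation and mitochondrial respiration, on which the adult heart relies for its energy, while Nrip1 recruits repressors to the same receptors.

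Of the 10 genes, 9 had a promoter window in the RefSeq table (GRCm38.p6), with 17 windows in all, each running from 250 bases before to 50 bases after a transcript start. The ERR core AAGGTCA, searched on both strands, was in 1 of the 17 windows and in 4.72% of all windows in the table. The longer ERR element TCAAGGTCA, which contains that core, was in 0 of the 17 windows against 0.423% of all windows. The PPAR-RXR element, AGGTCA repeated after 1 base of any kind, was in 0 of the 17 against 0.0396%, and the cyclic AMP element TGACGTCA in 0 of the 17 against 1.79%. The palindrome GCGCA followed by TGCGC, the site of the mitochondrial regulator Nrf1, was in 1 of the 17 windows against 0.971% of all. Among the gene groups described below, the ERR core was in 1 of 20 windows of PPAR targets (5.0%), 1 of 24 of ERR and PGC-1 targets (4.17%) and 1 of 17 of mitochondrial biogenesis factors (5.88%), shares near the 4.72% of all windows. It was also in 2 of 28 windows of upstream factors (7.14%), 1 of 31 of other nuclear receptors (3.23%) and 0 of 18 of coregulators. The cyclic AMP element was in 2 of 24 windows of ERR and PGC-1 targets (8.33%) and 1 of 28 of upstream factors (3.57%). The Nrf1 palindrome was in 1 of 24 windows of ERR and PGC-1 targets (4.17%). Each had 0 matches in the remaining groups. The 2 matches among the regulators are shown first. The 3 cores of PPAR targets, ERR and PGC-1 targets and biogenesis factors follow, so that the matched letters can be seen in their context. The genes are Acadm (an enzyme of fatty acid oxidation), Perm1 (a muscle gene induced by PGC-1 and ERR) and Twnk (the mitochondrial DNA helicase). Capitals mark the match, and each stretch lies before the start on the strand of the gene.
Rxra, chr2:27709223-27709269, plus strand: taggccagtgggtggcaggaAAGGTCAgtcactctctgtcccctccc
Ppara, chr15:85735725-85735774, plus strand: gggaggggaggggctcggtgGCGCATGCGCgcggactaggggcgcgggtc
Acadm, chr3:153944866-153944893, minus strand: gTGACCTTcgggctccggtgacactggg
Perm1, chr4:156215705-156215751, plus strand: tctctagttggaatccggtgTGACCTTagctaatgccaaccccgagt
Twnk, chr19:45005520-45005566, plus strand: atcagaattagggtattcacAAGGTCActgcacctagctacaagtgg
In Acadm and Perm1 the core lies on the strand opposite to the gene, so it reads TGACCTT. The matches begin 49 bases before the start in Rxra, 31 in Ppara, 249 in Acadm, 202 in Perm1 and 123 in Twnk. The Rxra and Ppara windows both belong to starts inside the gene as annotated, not to its outermost start. A match describes these letters and not a bound site.

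Total counts were 42291511 to 58658094 in MR libraries and 43535272 to 46264464 in Sham libraries, so that 3 counts, the limit that a count of 0 allows, equal 0.0511 to 0.0709 CPM (counts scaled to library size). This limit covers counting error only. On the first principal component, which held 30.5% of the variance, Sham replicate 3 lay at 7.18, nearer to the MR libraries (12.6 to 22.8) than to the other Sham libraries (−32.4 to −15.7). Sham replicate 1 scored 31.2 on the second component, where MR libraries scored −6.95 to 19.7 and the rest of the Sham group −19.3 to −6.27. Its limma-voom quality weight, 0.398, was the lowest of the 8. Results are therefore also given without these libraries where a call changes. Sham replicate 3 lay nearest to MR, so leaving it out can by itself widen the differences between the groups. The 8 cardiomyocyte markers were abundant in every library. Their summed level was 38499 to 43310 CPM in MR and 43576 to 50462 CPM in Sham, with all 8 log2 fold changes below 0 and 0 past the test in edgeR. These ran from −0.36 (Tnnt2) to −0.004 (Actn2), with Ryr2 and Myl3 both at −0.06, so the markers did not shift evenly. Myh6 made up the largest part of the sum. The 6 fibroblast markers summed to 835 to 919 CPM in MR and 768 to 801 CPM in Sham, with 2 of them (Col1a1 and Col1a2) higher in MR. Pdgfra (log2 fold change 0.20) and Lum (0.19) did not pass, and Dcn (−0.01) and Tcf21 (−0.05) lay below 0. The 8 neutrophil markers summed to 3.12 to 5.96 CPM in MR and 8.24 to 67.5 CPM in Sham. In whole tissue, fewer cells of a type and less RNA per cell cannot be told apart.

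Per kilobase of exon, Esrra was the most abundant of the 10 regulators, at 24.8 ± 1.61 CPM per kb in MR and 28.6 ± 2.65 in Sham (SD, n = 4 each), a mean above 93.0% of the genes tested. Its range over the 8 libraries lay above that of Ppargc1a, which was at 16.6 ± 1.22 CPM per kb in MR and 19.5 ± 2.05 in Sham. Ppara, at 12.2 ± 2.43 in MR and 13.2 ± 3.11 in Sham, overlapped in range with Ppargc1a above it and with Rxra below it (12.6 ± 0.478 in MR and 12.1 ± 0.753 in Sham). Esrrg followed, apart from its neighbours, at 9.02 ± 0.562 CPM per kb in MR and 9.53 ± 0.479 in Sham. Esrrb, Ppargc1b, Pparg, Ppard and Nrip1 made up the lower part of the order, each overlapping with the next, from a mean over all libraries of 5.19 CPM per kb for Esrrb to 2.39 for Nrip1. Even Nrip1 was above 49.5% of the genes tested. Counts behind these levels ran from 421 reads (Pparg) to 7085 reads (Esrra) per library. Levels per kb use all annotated exons of a gene, so a gene that uses only some of its exons is understated.

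**Figure D1:**
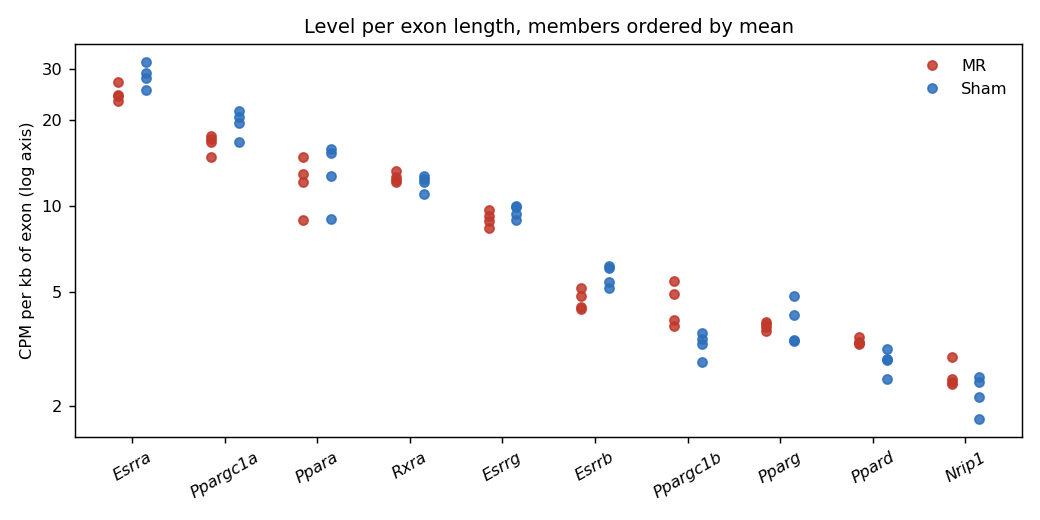
Level of each regulator in CPM per kb of exon on a log axis, with a point for each of the 4 MR (red) and 4 Sham (blue) libraries and genes ordered by their mean. Esrra sits highest, with 23.3 to 31.9 CPM per kb over the 8 libraries, and Nrip1 lowest, with 1.79 to 2.97.

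Between MR and Sham, 0 of the 10 regulators passed the test over all genes in edgeR, where 0.458% of 16603 genes did (40 or 0.241% higher and 36 or 0.217% lower in MR). With scaling by library totals alone these counts were 53 and 17. At an unadjusted p under 0.05 there were 5 of 10 regulators, against 15.1% of all genes tested. Because the genes were picked with earlier results known, this count is not independent evidence. Those 5 were Ppargc1b and Ppard, with higher values in MR (7.78% of all genes), and Esrrb, Ppargc1a and Esrra, with lower values (7.29% of all genes). DESeq2 called 4.14% of all genes, 2.14% higher and 2.01% lower, among them Ppargc1b higher and Esrrb lower. With quality weights limma-voom called 2.75% of all genes, 1.49% higher and 1.26% lower, among them Esrrb lower. With no filter on low counts edgeR called 3.06% of 30605 genes, 1.69% higher and 1.37% lower, among them Ppargc1b higher and Esrrb lower. Without Sham replicate 3 edgeR called 5.28% of all genes, 2.96% higher and 2.32% lower, among them Ppargc1b higher. Without Sham replicate 1 it called 0.551% of all genes (0.196% higher and 0.356% lower) and 0 of the 10. The median log2 fold change of the 10 was −0.07, against 0.00 over all genes tested, with 6 below 0 and 4 above. Libraries of MR and Sham hearts did not overlap in 2 of the 10, Ppargc1b and Ppard, both with all MR values above all Sham values, which was the case for 4.19% of all genes tested. The reverse, all MR values below all Sham values, held for 0 of the 10 and 3.91% of all genes, which makes 8.09% without overlap in either direction. Log2 fold changes run from MR over Sham throughout, and adjusted p-values are those of edgeR's quasi-likelihood test, adjusted by Benjamini-Hochberg over all 16603 genes, unless another tool is named.

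**Figure D2:**
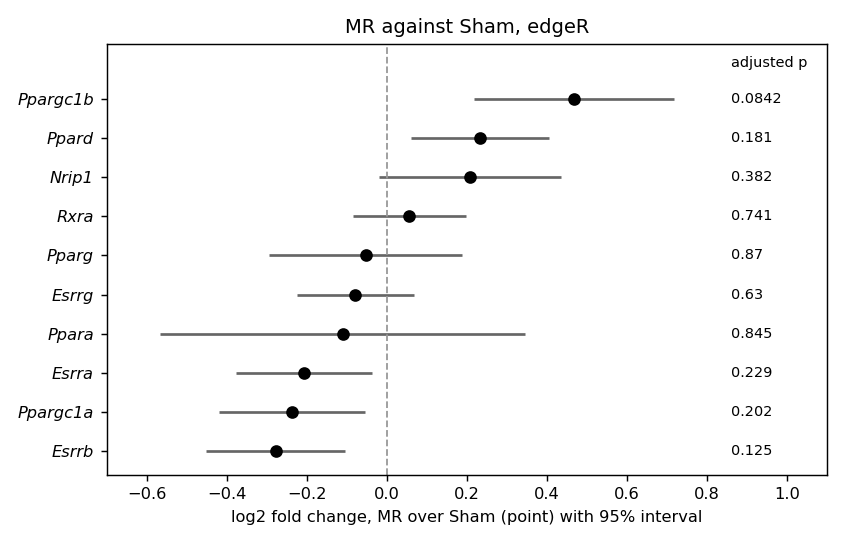
Log2 fold change of each regulator, MR over Sham, with its 95% interval (line) and its edgeR p adjusted over all genes tested. Ppargc1b at 0.47 and Esrrb at −0.28 are the outermost points, and 5 of the 10 intervals lie on one side of 0.

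The PPAR receptors did not pass the test, and only Ppard had groups that did not overlap. Ppara, the receptor that drives fatty acid oxidation genes in heart muscle (ENSMUSG00000022383, chromosome 15, 85734983 to 85802819, plus strand, GRCm38), was at 46.6, 34.3, 49.7 and 56.7 CPM in MR replicates 1 to 4 and at 34.5, 58.6, 48.7 and 60.6 CPM in Sham replicates 1 to 4. The groups overlapped over most of their range, and the lowest value in each group came from MR replicate 2 and Sham replicate 1. These are also the libraries with the highest scores on the second principal component (19.7 and 31.2), and its part in the result was not tested. The log2 fold change was −0.11 with a 95% interval of −0.57 to 0.35 (adjusted p = 0.845), the widest interval of the 10. Single libraries moved it from −0.26 without Sham replicate 1 to 0.012 without MR replicate 2.

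Ppard, the widely expressed family member that also acts on fatty acid oxidation genes in muscle (ENSMUSG00000002250, chromosome 17, 28232700 to 28301474, plus strand), was at 25.1, 24.7, 26.2 and 24.8 CPM in MR replicates 1 to 4 and at 18.6, 21.8, 23.7 and 21.7 CPM in Sham replicates 1 to 4. Every MR value lay above every Sham value, with MR replicate 2 and Sham replicate 3 the closest pair. Its log2 fold change was 0.23 (SE 0.08, 95% interval 0.06 to 0.40, adjusted p = 0.181), at 0.28 without Sham replicate 3 (adjusted p = 0.0646) and 0.16 without Sham replicate 1 (adjusted p = 0.268).

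Pparg, the regulator of fat cell formation (ENSMUSG00000000440, chromosome 6, 115360951 to 115490399, plus strand), was at 11.6, 11.4, 10.7 and 11.1 CPM in MR replicates 1 to 4 and at 14.3, 9.97, 12.2 and 10.05 CPM in Sham replicates 1 to 4. The MR values fell inside the range of the Sham values, whose spread was wider (coefficient of variation 3.30% in MR and 17.8% in Sham). Its log2 fold change was −0.05 with a 95% interval of −0.29 to 0.19 (adjusted p = 0.870), and single libraries moved it from −0.12 without Sham replicate 2 to 0.056 without Sham replicate 1. White fat cell markers were near 0 in these hearts. All 8 of them, among them the hormone genes Adipoq and Lep, averaged under 1 CPM, and their sum was 0.162 to 5.34 CPM in MR and 0.225 to 2.46 CPM in Sham. Of the brown fat markers, Ucp1 was at 0 in every library but MR replicate 3 (0.0465 CPM), and Elovl3 was at 0 to 0.139 CPM. The other markers of that list were present in every library, Cidea at 19.7 to 25.0 CPM and Prdm16 at 11.8 to 21.7 CPM.

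Rxra, the shared partner of the PPAR receptors (ENSMUSG00000015846, chromosome 2, 27676440 to 27762957, plus strand), was at 68.8, 66.2, 67.4 and 72.2 CPM in MR replicates 1 to 4 and at 60.2, 68.1, 69.6 and 66.3 CPM in Sham replicates 1 to 4. Its groups overlapped, and the lowest value was that of Sham replicate 1. With a log2 fold change of 0.06 it had a 95% interval of −0.09 to 0.20 (adjusted p = 0.741), the narrowest among the 10. It was 0.0078 without Sham replicate 1, 0.031 without MR replicate 4 and 0.099 with scaling by library totals.

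ERR receptors had log2 fold changes below 0 in all 3 members, by amounts that did not pass the test, where 49.6% of all genes lay below 0. The 8 cardiomyocyte markers were all below 0 as well, with a median of −0.23, though Actn2 (−0.004), Ryr2 and Myl3 (both −0.06) lay near 0. Their part in the result was not tested. Esrra, the family member with the highest level in these hearts and a regulator of respiration genes (ENSMUSG00000024955, chromosome 19, 6910977 to 6921813, minus strand), was at 106.7, 107.4, 102.1 and 118.7 CPM in MR replicates 1 to 4 and at 127.6, 122.4, 112.0 and 139.9 CPM in Sham replicates 1 to 4. MR replicate 4 lay above Sham replicate 3, and the other MR values lay below all Sham values. Its log2 fold change was −0.21 (SE 0.08, 95% interval −0.38 to −0.04, adjusted p = 0.229), and −0.26 without Sham replicate 3 (adjusted p = 0.0707). Esrra shares 73 of its 4387 exon bases with Trmt112 on the opposite strand and 91 with the microRNA gene Mir6990, and reads there cannot be told apart without strand.

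Esrrb, known for its part in embryonic stem cells and present in adult heart (ENSMUSG00000021255, chromosome 12, 86361117 to 86521628, plus strand), was at 26.4, 26.8, 29.2 and 31.2 CPM in MR replicates 1 to 4 and at 31.1, 36.6, 32.8 and 37.1 CPM in Sham replicates 1 to 4. A single pair of libraries kept the groups from separating, MR replicate 4 and Sham replicate 1. The log2 fold change was −0.28 (SE 0.08, 95% interval −0.45 to −0.10, adjusted p = 0.125), and leaving out single libraries gave −0.33 to −0.24, with adjusted p-values of 0.0632 to 0.345. Esrrb passed in DESeq2 (adjusted p = 0.0488), in limma-voom with quality weights (adjusted p = 0.0386) and in edgeR with no filter on low counts (adjusted p = 0.0333). The range over all its alternatives was 0.0333 to 0.345.

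Esrrg, which with Esrra sustains oxidative metabolism in the heart (ENSMUSG00000026610, chromosome 1, 187608791 to 188214885, plus strand), was at 57.3, 55.0, 51.8 and 60.0 CPM in MR replicates 1 to 4 and at 55.4, 61.8, 58.2 and 61.2 CPM in Sham replicates 1 to 4. The groups overlapped, and the log2 fold change was −0.08 with a 95% interval of −0.22 to 0.07 (adjusted p = 0.630). It was −0.043 without MR replicate 3 and −0.035 with scaling by library totals.

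**Figure D3:**
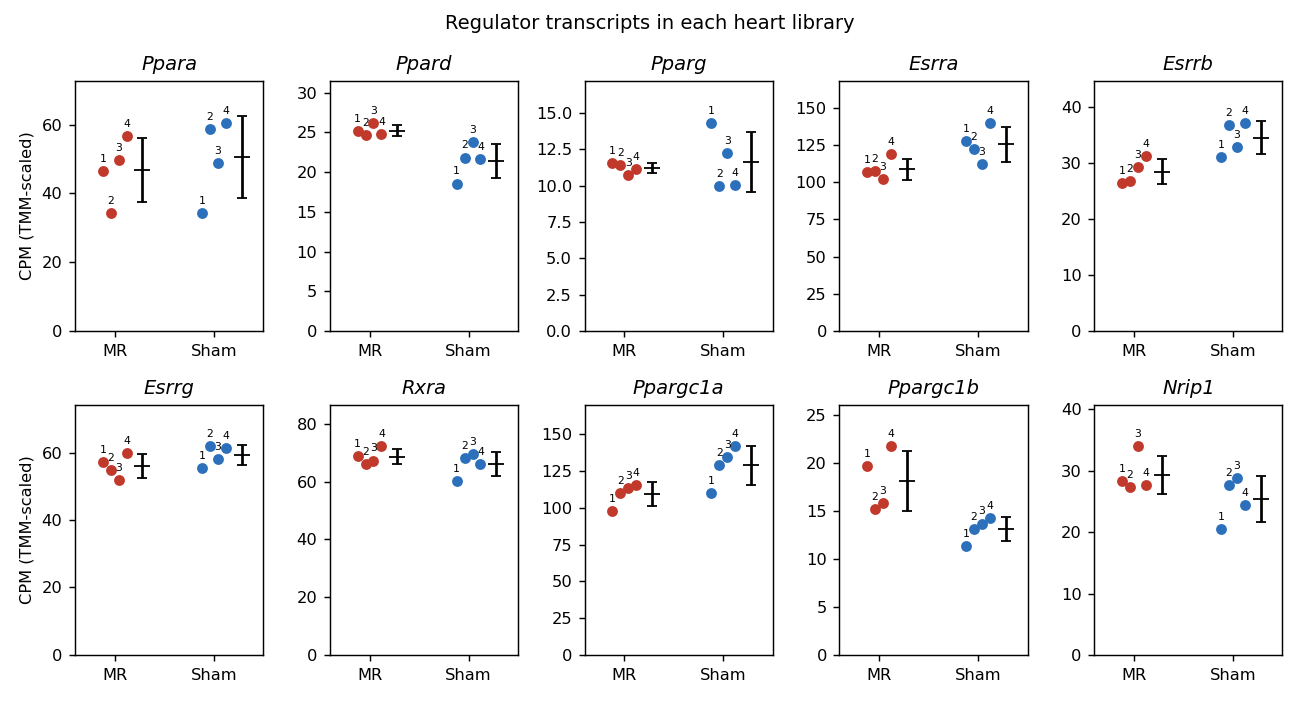
TMM-scaled CPM of the 10 regulators in each library, with MR left of Sham, replicate numbers above the points and mean ± SD (n = 4) in black beside each group. Ppargc1b and Ppard have MR and Sham values that do not overlap, while in Ppara MR replicate 2 (34.3 CPM) and Sham replicate 1 (34.5 CPM) sit far below the rest.

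The PGC-1 coactivators had log2 fold changes of opposite sign, and neither passed the edgeR test with all libraries. Ppargc1b had the lowest p-value of the 10, rank 260 of 16603 genes. It encodes PGC-1β, a relative of PGC-1α that also activates ERR receptors and mitochondrial genes (ENSMUSG00000033871, chromosome 18, 61298136 to 61400431, minus strand). Its level was 19.7, 15.2, 15.9 and 21.7 CPM in MR replicates 1 to 4 and 11.4, 13.1, 13.7 and 14.3 CPM in Sham replicates 1 to 4. Every MR value lay above every Sham value, with MR replicates 1 and 4 highest. The difference was 0.47 on the log2 scale, or 1.38-fold (SE 0.12, 95% interval 0.22 to 0.72, adjusted p = 0.0842).

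Ppargc1b passed in DESeq2 (adjusted p = 0.0152), in edgeR with no filter on low counts (adjusted p = 0.000178) and in edgeR without Sham replicate 3 (log2 fold change 0.48, adjusted p = 0.0471, where 5.28% of all genes passed). Over all its alternatives the adjusted p ran from 0.000178 to 0.198. The log2 fold change was 0.37 without MR replicate 4, 0.42 without MR replicate 1 and 0.40 without Sham replicate 1.

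Ppargc1a, which encodes PGC-1α, the coactivator induced by fasting, cold and exercise (ENSMUSG00000029167, chromosome 5, 51454250 to 51567726, minus strand), was at 97.7, 109.9, 113.4 and 115.7 CPM in MR replicates 1 to 4 and at 110.1, 128.7, 134.3 and 141.6 CPM in Sham replicates 1 to 4. All MR values lay below those of Sham replicates 2, 3 and 4, and Sham replicate 1 lay among the MR values. Its log2 fold change was −0.24 (SE 0.09, 95% interval −0.42 to −0.05, adjusted p = 0.202). Without Sham replicate 1 it was −0.31 (adjusted p = 0.0599), and without Sham replicate 3 it was −0.22 (adjusted p = 0.198). The 8 cardiomyocyte markers had a median log2 fold change of −0.23, close in size to that of Ppargc1a, and their part in the result was not tested.

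The ratio of Ppargc1a to Ppargc1b within a library, both per kb, does not depend on scaling between libraries. It was 3.01, 4.38, 4.33 and 3.23 in MR replicates 1 to 4 and 5.86, 5.93, 5.95 and 6.00 in Sham replicates 1 to 4. The groups did not overlap, and the Sham values lay close together (5.93 ± 0.0608 in Sham against 3.73 ± 0.720 in MR, SD, n = 4). The Sham ratios rest on 490, 555, 607 and 661 Ppargc1b reads, for which counting error alone is expected to exceed this spread. The closeness is therefore not read as a tightly held ratio. Sham replicates 1 and 3, which stood apart from the other Sham libraries over all genes, did not stand apart here. The ratio of Esrra to Esrrg was 2.64 to 2.80 in MR and 2.72 to 3.26 in Sham, and that of Ppara to Ppard was 2.72 to 4.47 in MR and 3.63 to 5.46 in Sham, and both overlapped. These 3 ratios are given as descriptions without a test. Ppargc1b alone already separated the groups and Ppargc1a had the opposite sign, so the first ratio is not further evidence. How many other gene pairs separate the groups was not examined.

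**Figure D4:**
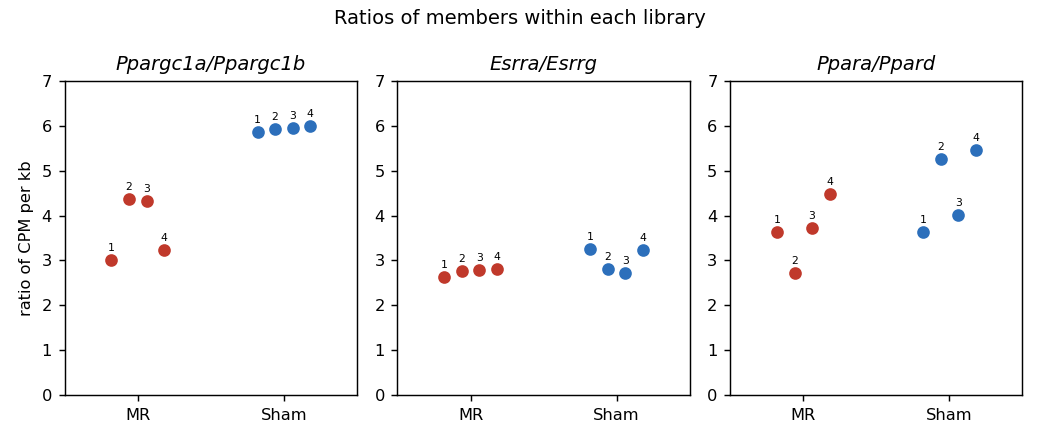
Ratio of CPM per kb between 2 regulators within each library, with MR left of Sham and replicate numbers above the points. The ratio of Ppargc1a to Ppargc1b is 3.01 to 4.38 in MR and 5.86 to 6.00 in Sham, and the other ratios overlap between groups.

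Nrip1, the corepressor that opposes PGC-1 on PPAR and ERR receptors (ENSMUSG00000048490, chromosome 16, 76287400 to 76373827, minus strand), was at 28.4, 27.3, 34.0 and 27.6 CPM in MR replicates 1 to 4 and at 20.5, 27.7, 28.9 and 24.5 CPM in Sham replicates 1 to 4. MR replicate 3 was the highest and Sham replicate 1 the lowest, and the other libraries overlapped. The log2 fold change was 0.21 (SE 0.11, 95% interval −0.02 to 0.43, adjusted p = 0.382), at 0.11 without Sham replicate 1 and 0.13 without MR replicate 3.

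Among 13326 tested genes that averaged at least 1 CPM, those whose centred log2 CPM over the 8 libraries differed least from a regulator were sought for 3 of them. For Ppargc1a they were Clk3 and the processed pseudogenes Gm10052 and Ybx1-ps2, with root mean square differences of 0.0618, 0.0626 and 0.0643, where Ppargc1a itself varied by 0.166. For Esrra they were Gm10033, Uspl1 and Cyp1b1, at 0.0326, 0.0394 and 0.0401, where Esrra varied by 0.142. For Ppara they were Gm9821, Sox6 and Nktr, at 0.0707, 0.0853 and 0.0862, where Ppara varied by 0.300. Reads of a pseudogene such as Gm10052, Ybx1-ps2 or Gm10033 may come from its parent gene, so those are uncertain. With 8 libraries this likeness is a description of these samples.

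PPAR target genes of fatty acid use had the lowest median among the 6 gene groups around the regulators. In edgeR 0 of 25 passed, where 0.458% of all genes did, but 22 of 25 had log2 fold changes below 0, against 49.6% of all genes tested, and the median was −0.24 against 0.00 over all genes. At an unadjusted p under 0.05, 17 of 25 were lower and 0 higher in MR, against 7.29% of all genes lower. DESeq2 called 5 of 25 lower (2.01% of all genes) and limma-voom 2 (1.26% of all genes). Without Sham replicate 3 edgeR called 6 lower, where 2.32% of all genes were lower (Ech1, Plin5, Decr1, Acadvl, Hadha and Acadm). With any other library left out edgeR called 0 of this list, but then it called only 2 to 60 of all genes lower. The 60 genes, 0.356% of all, were those without Sham replicate 1. The number below 0 ran from 19 of 25 without MR replicate 3 to 23 of 25. Acadvl shares 42.9% of its exon bases with Dvl2 on the opposite strand, so its value is uncertain. That most fatty acid oxidation and respiration genes had log2 fold changes below 0 in these libraries was known when the lists were written, so the counts of this list and the next are not independent evidence. The summed cardiomyocyte markers lay lower in every MR library than in every Sham library, as given above, and their part in the result was not tested.

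Plin5, the lipid droplet protein that ties stored fat to mitochondria, had the lowest p of the list. It was at 67.7, 59.5, 53.7 and 69.0 CPM in MR replicates 1 to 4 and at 92.8, 82.0, 74.1 and 84.7 CPM in Sham replicates 1 to 4. The groups did not overlap, with Sham replicate 3 nearest to MR, and the log2 fold change was −0.42 (SE 0.09, adjusted p = 0.0641). Ech1, an enzyme that handles unsaturated fatty acids, was at 877.5, 825.6, 721.2 and 837.9 CPM in MR and at 1104, 1145, 890.6 and 1249 CPM in Sham, again without overlap (log2 fold change −0.43, SE 0.10, adjusted p = 0.0729). Hadha, a subunit of the mitochondrial trifunctional protein, had a log2 fold change of −0.28 (adjusted p = 0.129), and Acadm, whose promoter stretch is printed above, was at −0.27 (adjusted p = 0.163). Plin5 was at −0.47 (adjusted p = 0.00915) and Ech1 at −0.52 (adjusted p = 0.00427) without Sham replicate 3 in edgeR.

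The 5 PPAR targets fixed by role included the most variable genes named here. Pdk4, which restrains glucose oxidation, had a log2 fold change of 0.36 with SE 0.50 (adjusted p = 0.788), and Ucp3, a mitochondrial carrier induced by fatty acids, was at −0.17 with SE 0.33 (adjusted p = 0.853). Angptl4, a secreted inhibitor of lipoprotein lipase, was at −0.83 with SE 0.49 (adjusted p = 0.477). Acot1, a thioesterase, was at −0.69 (adjusted p = 0.228), and it is close in sequence to other Acot genes, so its value is uncertain. Cpt1b, the muscle enzyme of fatty acid entry into mitochondria, was at −0.58 (adjusted p = 0.206), but it shares 81.4% of its exon bases with the overlapping gene Gm44502 on the same strand, so its value is uncertain too. Of these 5, none had groups that did not overlap, where 8.09% of all genes tested had none.

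**Figure D5:**
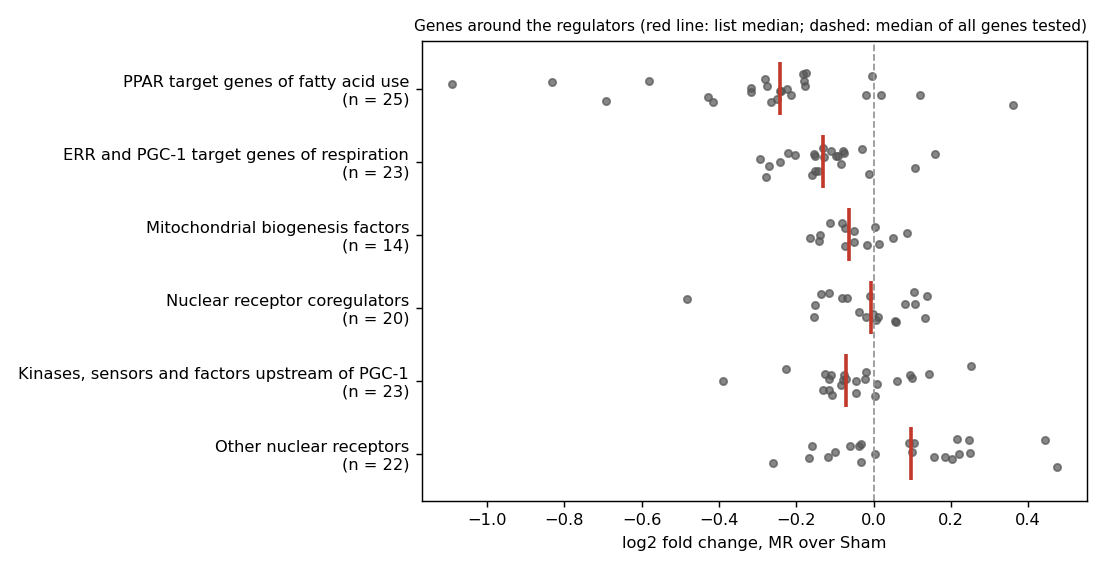
Log2 fold change, MR over Sham, of each tested gene in the 6 gene groups around the regulators, with the group median as a red line and the median of all genes tested as a dashed line. PPAR targets have the lowest median (−0.24) and other nuclear receptors the highest (0.10, or 0.022 without Sham replicate 1). In each of the groups 0 genes passed the edgeR test, where 0.458% of all genes tested did.

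ERR and PGC-1 target genes of respiration showed smaller differences. In edgeR 0 of 23 passed, where 0.458% of all genes did. Of the log2 fold changes 21 of 23 lay below 0 with a median of −0.13, against 49.6% and a median of 0.00 over all genes. The median was −0.086 without Sham replicate 1 and −0.085 with scaling by library totals. At an unadjusted p under 0.05 there were 6 of 23 (26.1%), all lower in MR, against 7.29% of all genes lower. DESeq2 called 2 lower (2.01% of all genes) and limma-voom 1 (1.26% of all genes). Without Sham replicate 3, edgeR called 4 lower, namely Cox6a2, Sdha, Slc25a4 and Ndufv1, where 2.32% of all genes were lower. With any other library left out it called 0 of this list, where only 2 to 60 of all genes were called lower. Cox6a2, a muscle subunit of cytochrome c oxidase, was at 658.9, 708.7, 623.2 and 691.4 CPM in MR and at 895.0, 794.7, 730.9 and 865.9 CPM in Sham. Its groups did not overlap, and the log2 fold change was −0.29 (SE 0.08, adjusted p = 0.111), with 10.3% of its exon bases shared with Itgad on the opposite strand. Sdha, the flavoprotein of complex II, was at −0.24 (adjusted p = 0.147), also without overlap. Perm1 was at 293.7, 308.0, 278.4 and 328.2 CPM in MR and at 337.1, 372.3, 330.2 and 370.2 CPM in Sham, a difference of −0.22 (adjusted p = 0.179) with MR replicate 4 just below Sham replicate 3. Cycs, which encodes cytochrome c, was at −0.08 (adjusted p = 0.755). The cardiomyocyte markers given above were below 0 too, some of them only slightly, and their part was not tested.

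Mitochondrial biogenesis factors, which copy and transcribe mitochondrial DNA or switch on the nuclear genes that do, lay near 0. In edgeR 0 of 14 passed (0.458% of all genes) and 0 had an unadjusted p under 0.05 (15.1% of all genes). DESeq2 and limma-voom called 0 (4.14% and 2.75% of all genes). The log2 fold changes had a median of −0.06 and a range of −0.16 to 0.09. The median was −0.016 without Sham replicate 1, −0.037 without MR replicate 2 and −0.019 with scaling by library totals. Gabpa, a subunit of the nuclear respiratory factor NRF-2, was at −0.11 (adjusted p = 0.428). Pprc1, a relative of the PGC-1 coactivators, was at −0.16 (adjusted p = 0.440), and Twnk, the mitochondrial DNA helicase, was at −0.14 (adjusted p = 0.531), with 12.6% of its exon bases shared with Mrpl43 on the opposite strand. Tfam, which packages mitochondrial DNA, had a log2 fold change of 0.00 with a 95% interval of −0.19 to 0.20 (adjusted p = 0.989). It was 0.11 without Sham replicate 1.

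Other coregulators of nuclear receptors had 0 of 20 past the test in edgeR, where 0.458% of all genes passed. At an unadjusted p under 0.05 there was 1 (5%, against 15.1% of all genes). DESeq2 and limma-voom called 0 (4.14% and 2.75% of all genes), and the median log2 fold change was −0.01. The sign of that median depended on the libraries and the scaling: it was −0.070 without Sham replicate 1 but 0.037 without Sham replicate 2, 0.026 without Sham replicate 4, 0.024 without MR replicate 2 and 0.037 with scaling by library totals. The single gene was Nr0b2, the atypical receptor SHP that represses others, at 5.30, 5.25, 4.67 and 5.59 CPM in MR and 9.12, 6.44, 5.32 and 8.23 CPM in Sham. MR replicate 4 lay above Sham replicate 3, and the log2 fold change was −0.48 (SE 0.15, adjusted p = 0.147). Nr0b2 passed in edgeR without Sham replicate 3 (−0.61, adjusted p = 0.0169), where 2.32% of all genes were lower. Hdac3, the deacetylase of the NCoR complex, was at −0.15 (adjusted p = 0.366), Ctbp1, a corepressor that binds Nrip1, was at −0.14 (adjusted p = 0.421), and Ncor1, the corepressor of unliganded receptors, was at 0.06 (adjusted p = 0.858).

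Kinases, sensors and factors upstream of PGC-1 had 0 of 23 past the test in edgeR, where 0.458% of all genes passed. At an unadjusted p under 0.05 there were 3 (13.04%, against 15.1% of all genes), a share near the background. DESeq2 called 1 lower (2.01% of all genes) and limma-voom 0 (2.75% of all genes in either direction), and the median log2 fold change was −0.07. The median was −0.044 without MR replicate 3 and −0.026 with scaling by library totals. Prkag1, a regulatory subunit of the energy sensor AMPK, was at 14.1, 14.4, 12.2 and 15.1 CPM in MR and at 21.96, 17.1, 16.4 and 17.8 CPM in Sham. The groups did not overlap, and the log2 fold change was −0.39 (SE 0.10, adjusted p = 0.0907), with adjusted p = 0.0200 in DESeq2 and 0.0265 in edgeR without Sham replicate 3. An antisense gene overlaps 43.7% of its exon bases, so without strand the value is uncertain. Flcn, which acts with Fnip1 on AMPK, was at −0.23 (adjusted p = 0.259). Prkab2, another AMPK subunit, was at 0.25 (adjusted p = 0.273), and Prkaa2, the main catalytic subunit in muscle, was at −0.02 (adjusted p = 0.954).

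Other nuclear receptors had 0 of 22 past the test in edgeR, where 0.458% of all genes passed. At an unadjusted p under 0.05 there were 3 (13.6%, against 15.1% of all genes). DESeq2 and limma-voom called 0 (4.14% and 2.75% of all genes). Of the log2 fold changes 13 of 22 lay above 0, with a median of 0.10. The median was 0.022 without Sham replicate 1, 0.024 without MR replicate 4 and 0.052 without MR replicate 2. Hnf4a, the remaining member of the list, had no count in any library. Rarg, a retinoic acid receptor, was at 0.25 (adjusted p = 0.248). Nr3c2, the mineralocorticoid receptor, was at −0.26 (adjusted p = 0.265), and the clock repressor Nr1d2 was at −0.16 (adjusted p = 0.306). Rxrb, a further partner of the PPAR receptors, was at 27.7 ± 2.22 CPM in MR and 27.6 ± 1.05 CPM in Sham (SD, n = 4; log2 fold change 0.00, adjusted p = 0.990). Without Sham replicate 3 edgeR called 1 gene, Nr1d1, higher (0.40, adjusted p = 0.0282), where 2.96% of all genes were higher. It was chosen for mention after its value was seen.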

How the data were processed

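RNA was extracted with TRIzol from snap-frozen heart and made into libraries with an mRNA-seq kit, per the labels' protocols. The submitters' processing notes list HISAT2 2.0.5 and mm10 but no role for either. No source used here states the counter, the annotation release or the strand setting. Raw whole-number counts per Ensembl gene were deposited by the authors, in 1 column per library. Columns were matched to libraries by title and grouped by treatment label. Genes with 2 reads outnumbered genes with 1 read by 2.27 to 2.82 times per library, so the 2 ends of a pair may have been counted separately and reads are not all independent. GENCODE M21 (GRCm38, the assembly that mm10 names) gave symbols for 32350 identifiers, coordinates and merged exon lengths.

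Genes were filtered with filterByExpr (minimum count 10, minimum total 15), leaving 16603 tested. Libraries were scaled by TMM, and CPM are TMM-scaled. MR and Sham were compared with the quasi-likelihood F test of edgeR 4.0.16 (robust, R 4.3.3), with Benjamini-Hochberg adjustment over all genes tested and a false discovery rate of 0.05. Standard errors were taken as the size of the log2 fold change over the root of its F value. Other settings were RLE and library-total scaling, no filter, 1 CPM in 4 libraries, DESeq2 1.42.0, limma-voom 3.58.1 with quality weights, no robust moderation, and leaving out each library. The labels do not say that libraries came from separate animals, so the spread behind the p-values may be partly technical.

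Members, gene lists, markers and motifs were chosen with earlier results of these data known. Genes named are the 10 regulators, the 3 with the lowest p in each list, 11 fixed by role, and for 3 regulators the 3 most alike. Acadm, Nr1d1 and the genes named as called under an alternative setting lie outside this rule and were picked with their values known. The summed levels of the marker lists not described in the report were 112 to 229 CPM in MR and 73.0 to 97.6 CPM in Sham (atrial), 752 to 801 CPM in MR and 622 to 774 CPM in Sham (endothelial), 1389 to 1514 CPM in MR and 1244 to 1480 CPM in Sham (smooth muscle and pericyte), 182 to 205 CPM in MR and 206 to 224 CPM in Sham (macrophage), 38.4 to 41.0 CPM in MR and 36.9 to 46.6 CPM in Sham (brown fat) and 1.24 to 1.96 CPM in MR and 1.04 to 1.64 CPM in Sham (skeletal muscle). Nppa made up most of the atrial sum, at 81.5, 96.1, 204.8 and 81.4 CPM in MR replicates 1 to 4. It was at 42.0, 43.9, 54.5 and 65.7 CPM in Sham replicates 1 to 4. On the same list Tbx5 had a log2 fold change of −0.37, and Sln, Myl7 and Myl4 overlapped between groups. Promoter sequences are from RefSeq (GRCm38.p6).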

Additional observations from a re-analysis of the deposited data

Results flagged for a closer look

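Nrip1 in MR replicate 3 was at 34.0 CPM, far from the other 3 MR libraries at 27.3 to 28.4 CPM, with a gap of 0.846 of the range of the group, above Dixon's critical value for 4 samples. Chance marks about 1 in 20 groups, and 26 groups were examined (10 regulators and 3 ratios in MR and Sham). The log2 fold change of Nrip1 was 0.21 with all libraries and 0.13 without MR replicate 3.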

How the results depend on the processing

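Each value was recomputed under 15 other settings. The fold changes of Esrra, Esrrg, Nrip1, Ppard, Ppargc1a and Rxra kept their direction and stayed outside the threshold in all 15, and Esrrb and Ppargc1b kept their direction in all 15. Ppara turned to 0.012 without MR replicate 2 (range −0.26 to 0.012 with a library left out), and Pparg to 0.058 with limma-voom and to 0.056 without Sham replicate 1 (range −0.12 to 0.056). With library totals only, Ppara was at −0.068 and Pparg at −0.0079. With limma-voom Ppara was at −0.21, Rxra at 0.034 and the medians of biogenesis factors, coregulators and other nuclear receptors at −0.030, −0.049 and 0.039. With at least 1 CPM in 4 libraries the median of other nuclear receptors was 0.055. The causes were not tested. Over all genes, 40 were higher and 36 lower. These counts were 517 and 419 of 30605 genes with no low count filter (1.69% and 1.37%), 355 and 333 in DESeq2 (2.14% and 2.01%), and 248 and 209 in limma-voom (1.49% and 1.26%), and the lower genes numbered 17 with library totals only and 20 with at least 1 CPM in 4 libraries. With a library left out they ran from 1 to 497 higher and from 2 to 390 lower. Both highest values came without Sham replicate 3 (2.96% and 2.32% of 16813 genes), and leaving out any 1 of the 8 libraries moved at least 1 of these counts by over 1.5 times.

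Among the regulators, 1 was higher and 1 lower with no filter and in DESeq2, 0 and 1 in limma-voom, and 0 to 1 higher with a library left out. PPAR targets called lower numbered 7 with no filter, 5 in DESeq2, 2 in limma-voom and 0 to 6 with a library left out. ERR and PGC-1 targets called lower numbered 2, 2, 1 and 0 to 4 in the same order. Upstream factors called lower numbered 1 with no filter, 1 in DESeq2 and 0 to 1 with a library left out. Coregulators called lower numbered 1 with no filter and 0 to 1 with a library left out, and other nuclear receptors called higher 0 to 1. No paired analysis was possible because the titles' numbers are not shared between the groups. The 10 regulators had at least 421 reads in every library, while differences in genes near the limit of 3 counts, such as Ucp1, were not detectable at this depth.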

Other observations

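Within the MR group, several PPAR-responsive genes were high in the same libraries. Pdk4 was at 555.0, 298.1, 126.0 and 603.9 CPM in MR replicates 1 to 4 and at 416.0, 279.5, 293.3 and 243.7 CPM in Sham replicates 1 to 4. Ucp3 was at 74.2, 31.4, 29.8 and 60.4 CPM in MR and at 63.2, 49.8, 47.8 and 60.5 CPM in Sham. Acot1 was at 8.13, 6.76, 5.60 and 11.3 CPM in MR and at 18.2, 12.9, 9.62 and 10.996 CPM in Sham. MR replicates 1 and 4, the highest MR libraries for these 3 genes, were also the highest for Ppargc1b (19.7 and 21.7 CPM, against 15.2 and 15.9 CPM in MR replicates 2 and 3). The Sham libraries did not show this. Sham replicate 1, the highest Sham library for the 3 genes, was the lowest for Ppargc1b (11.4 CPM). Nor did Ppara follow the MR pattern, being higher in MR replicate 3 (49.7 CPM) than in MR replicate 1 (46.6 CPM). MR replicates 1 and 4 were noticed after the values were seen, and the pattern was not tested.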
